A study of Rattus norvegicus with 24 samples.

Results

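The 9 interferon-stimulated genes Isg15, Mx1, Mx2, Ifit2, Ifit3, Irf7, Oasl, Rsad2 and Cxcl10 were followed in the urethra of rats after simulated vaginal delivery (SVD). They were taken by gene symbol from a table of 32883 genes. Each symbol had 1 row, and 9 of 9 genes were among the 16287 tested. The genes were listed by name and not by their values, though earlier results of these data were known. SVD is a childbirth injury made by crushing the pudendal nerve and distending the vagina. All animals were virgin female Sprague-Dawley rats, 12 weeks old, and every group received SVD, so there was no uninjured group. Rats were then injected into the aorta with saline, with MABsallo or with MABsallo-VEGF, and the urethra was taken after 3d or 7d, which gave 6 groups of 4 samples. MABs (mesoangioblasts) are vessel-associated stem cells of skeletal muscle, and MABsallo came from a muscle biopsy of another rat, expanded as a cell line. They carried a lentiviral vector for eGFP and firefly luciferase. MABsallo-VEGF carried in addition a vector in which the viral SFFV promoter drives VEGF165 and a truncated CD34. The labels give the genotype WT for the saline and MABsallo samples and VEGF OE for the MABsallo-VEGF samples, and they mark 2 of the 4 MABsallo-VEGF samples of 7d, replicates 6 and 7, as recovered. Host and injected cells are both of rat, and their transcripts cannot be told apart in the table. These are bulk samples, in which fewer cells of a type and less RNA per cell cannot be told apart either.

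Interferons are cytokines that cells release on sensing viral or misplaced nucleic acid. Type I interferons bind the receptor Ifnar1 and Ifnar2, whose kinases activate transcription factors in the cytoplasm. A complex that holds Stat2 and Irf9 then binds the interferon-stimulated response element (ISRE) of target genes, while the response to Ifng uses a different element, GAS. The 9 genes are classical targets. Irf7 is a transcription factor that amplifies interferon production, Isg15 is a ubiquitin-like modifier, Mx1 and Mx2 are dynamin-like GTPases, Ifit2 and Ifit3 are tetratricopeptide proteins that act on viral RNA, Oasl belongs to the oligoadenylate synthetase family, Rsad2 (viperin) is a radical SAM enzyme, and Cxcl10 is a chemokine that attracts T and NK cells through Cxcr3.

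The start of 6 of the 9 genes was present in the RefSeq promoter set of the build GRCr8, from 250 bases before to 50 after the transcription start. These promoters are shown because they differ in whether they hold the element that defines the class. The core of the ISRE was searched as GAAA, any 2 bases (NN) and GAAA again, and GAS as TTCNNNGAA, on both strands, and ISRE matches are in capitals. Sequences run 5′ to 3′ on the strand of the gene. They lie at chr1:241527076-241527375 on the plus strand for Ifit3, chr1:205799974-205800273 on the minus strand for Irf7, chr6:48788071-48788370 on the minus strand for Rsad2, chr14:15988816-15989115 on the plus strand for Cxcl10, chr11:50294557-50294856 on the minus strand for Mx1 and chr12:47356243-47356542 on the minus strand for Oasl.
Ifit3: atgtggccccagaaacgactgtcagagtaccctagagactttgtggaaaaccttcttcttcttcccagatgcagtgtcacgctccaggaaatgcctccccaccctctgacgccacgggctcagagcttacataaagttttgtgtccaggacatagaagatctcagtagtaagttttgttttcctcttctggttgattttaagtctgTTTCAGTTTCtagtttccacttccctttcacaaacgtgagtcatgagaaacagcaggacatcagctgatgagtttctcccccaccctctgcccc
Irf7: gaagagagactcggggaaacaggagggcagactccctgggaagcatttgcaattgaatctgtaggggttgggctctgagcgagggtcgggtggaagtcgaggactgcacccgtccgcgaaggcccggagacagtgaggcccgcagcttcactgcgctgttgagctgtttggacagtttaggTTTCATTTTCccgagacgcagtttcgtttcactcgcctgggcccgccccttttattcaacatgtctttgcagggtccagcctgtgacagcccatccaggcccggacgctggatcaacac
Rsad2: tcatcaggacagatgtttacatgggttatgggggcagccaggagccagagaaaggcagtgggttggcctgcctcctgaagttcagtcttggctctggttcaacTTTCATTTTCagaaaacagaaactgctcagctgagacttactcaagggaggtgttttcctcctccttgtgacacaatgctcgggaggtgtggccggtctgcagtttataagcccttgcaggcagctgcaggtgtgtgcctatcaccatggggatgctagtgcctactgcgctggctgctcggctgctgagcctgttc
Cxcl10: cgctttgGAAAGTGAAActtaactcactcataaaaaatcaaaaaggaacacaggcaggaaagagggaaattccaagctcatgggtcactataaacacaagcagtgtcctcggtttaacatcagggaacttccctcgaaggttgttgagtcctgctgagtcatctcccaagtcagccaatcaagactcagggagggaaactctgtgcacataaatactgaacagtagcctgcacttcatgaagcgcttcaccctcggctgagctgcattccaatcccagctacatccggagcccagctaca
Mx1: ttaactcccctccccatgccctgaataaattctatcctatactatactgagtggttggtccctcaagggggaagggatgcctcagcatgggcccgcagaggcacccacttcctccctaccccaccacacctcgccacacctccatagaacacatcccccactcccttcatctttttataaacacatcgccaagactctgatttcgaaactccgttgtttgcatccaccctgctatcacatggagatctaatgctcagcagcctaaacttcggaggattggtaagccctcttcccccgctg
Oasl: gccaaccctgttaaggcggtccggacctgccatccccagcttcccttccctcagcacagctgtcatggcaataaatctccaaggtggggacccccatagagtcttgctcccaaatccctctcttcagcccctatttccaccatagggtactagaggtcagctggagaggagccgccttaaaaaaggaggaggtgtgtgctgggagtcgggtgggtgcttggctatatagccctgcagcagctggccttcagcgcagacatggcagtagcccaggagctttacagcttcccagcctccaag

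The ISRE core was found in 4 of the 6 promoters, with no overlapping matches, and in 3.92% of 33469 RefSeq promoters of the same length. It lay at -44 to -35 from the start in Ifit3, at -69 to -60 in Irf7 and at -147 to -138 in Rsad2, each time on the opposite strand of the gene. In Cxcl10 it lay at -243 to -234 on the strand of the gene. The promoters of Mx1 and Oasl had no match to these letters in this window. GAS was found in 0 of the 6 and in 8.87% of all promoters. Promoters with and without a match are referred to again beside the values.

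Values are normalized gene counts of 3′ mRNA libraries, in which a transcript gives reads near its end. Samples had 2170695 to 10166052 reads on genes, and 1 read was worth 1.67 to 9.23 normalized counts, with the fewest reads in the cell-treated samples of 3d. The fewest reads behind a value were 6, for Mx2 in MABsallo-VEGF 3d replicate 2, and the most were 1689, for Cxcl10 in saline 7d replicate 3, so counting error is large at the low end. Markers of smooth muscle (6 of 6 in the table), striated muscle (4 of 6) and urothelium (7 of 8) were present in every urethra, but the summed urothelial level ranged from 898 to 73006 normalized counts and that of smooth muscle from 22808 to 316058. In earlier results of these data saline 3d replicate 6 and MABsallo-VEGF 3d replicate 4 stood apart from their groups, and results that rest on them are given with all 24 samples and with the other 22.

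Each of the 9 genes varied widely over the 24 urethras. Cxcl10 had the widest range, from 36.3 normalized counts in MABsallo-VEGF 7d replicate 6 to 5657 in saline 7d replicate 3, a ratio of 156. Rsad2 followed with a ratio of 58.9 between MABsallo 7d replicate 13 and MABsallo-VEGF 7d replicate 7. The ratio was 27.5 for Mx2, 26.9 for Oasl, 21.2 for Isg15, 12.9 for Mx1, 9.91 for Ifit3 and 9.83 for Irf7. Ifit2 had the narrowest range, 6.48. Isg15 had its lowest value, 40.6, and its highest, 861, in the same group, saline 7d.

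**Figure D1:**
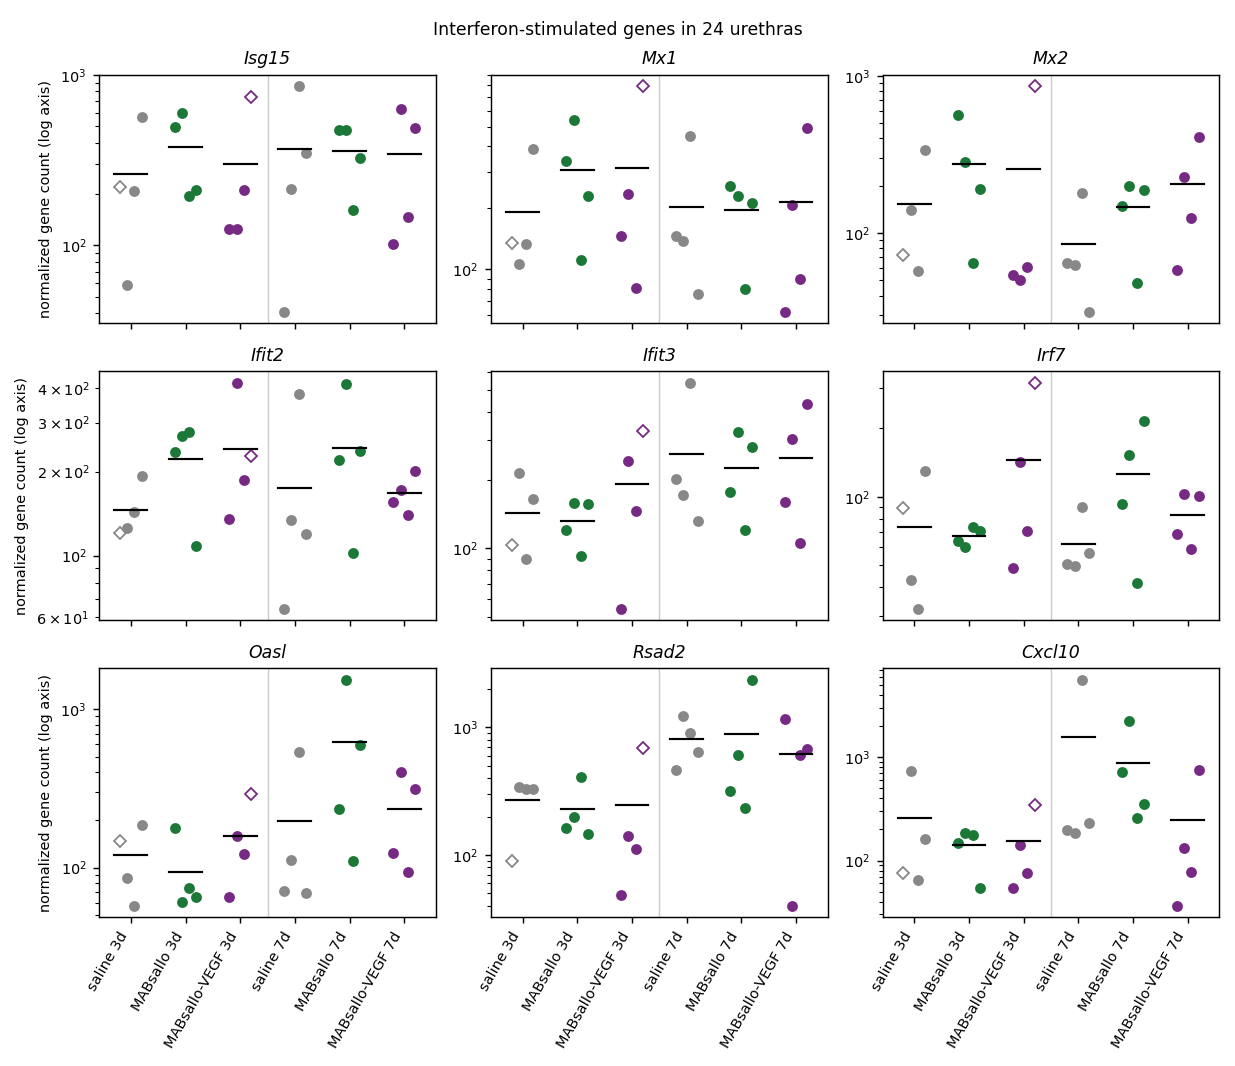
Normalized gene counts of the 9 genes (log axis) in the 4 urethras of each group, with the group mean as a bar, at 3d left and at 7d right of the grey line. Open diamonds are saline 3d replicate 6 and MABsallo-VEGF 3d replicate 4, and in 132 of 135 pairs of groups the points of a gene overlap. Of all genes tested, 1.63% to 34.7% had no overlap, depending on the pair of groups.

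With 9 genes and 15 pairs of groups there were 135 comparisons of ranges, and the groups did not overlap in 3 of them. Over all genes tested the share without overlap depended on the pair. It ranged from 1.63% for MABsallo 3d and MABsallo-VEGF 3d to 34.7% for MABsallo 3d and saline 7d. When the 6 groups of each gene were put in the order of their means, 0 of the 45 neighbouring pairs were free of overlap. Neighbours in mean are the groups most prone to overlap, and this count was not made over all genes, so it is only a description. Mean levels of Isg15 lay between 262 ± 213 (SD, n = 4) in saline 3d and 375 ± 203 in MABsallo 3d. Those of Mx1 lay between 190 ± 132 in saline 3d and 313 ± 326 in MABsallo-VEGF 3d. For both genes the SDs were of the size of the distances between the group means or larger. Irf7 ranged from 61.9 ± 19.3 in saline 7d to 144 ± 121 in MABsallo-VEGF 3d. Ifit2 ranged from 146 ± 33.4 in saline 3d to 243 ± 129 in MABsallo 7d, and Ifit3 from 132 ± 31.9 in MABsallo 3d to 261 ± 186 in saline 7d. The 3 highest means were those of the 7d groups for Ifit3, Oasl and Rsad2, while for the other genes means of 3d and 7d alternated in the order.

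The first question was whether cell injection changed the interferon-stimulated genes. At 3d, 0 of the 9 genes differed between MABsallo and saline in limma, where a call needed both adjusted p below 0.05 and log2 fold change past 1 in size, while 12.3% of all genes tested did. None reached an unadjusted p of 0.05, against 31.4% of all genes. DESeq2 and edgeR called 0 members as well, beside 9.59% and 8.24% of all genes. Without saline 3d replicate 6 and MABsallo-VEGF 3d replicate 4 the count of members was again 0, beside 18.1% of all genes. The log2 fold changes lay between -0.35 for Oasl and 0.82 for Mx2, with a median of 0.07 over the members and 0.07 over all genes. The 95% intervals still allow changes of some size, from -0.42 to 1.51 for Ifit2, the narrowest, and from -2.38 to 1.82 for Cxcl10, the widest. In 0 of the 9 genes were the groups free of overlap, against 14.7% of all genes.

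Nor were members called after MABsallo-VEGF at 3d. Compared with saline, 0 of the 9 genes passed, beside 0.0307% of all genes, and with the 22 samples 0 passed beside 13.6%. Compared with MABsallo, 0 passed beside 0.00614%. In both comparisons 0 members had an unadjusted p below 0.05 with all 24 samples. The shares of all genes were 17.9% for saline and 6.13% for MABsallo. DESeq2 and edgeR called 0 members. They called 1.98% and 0.00614% of all genes against saline, and 0% each against MABsallo. The groups were free of overlap in 0 of the 9 genes in each comparison, against 4.0% of all genes for saline and 1.63% for MABsallo.

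Mx2 was a member whose value at 3d turned on a single library. It had 54.1, 50.01, 60.5 and 864 normalized counts in MABsallo-VEGF replicates 1 to 4, and 561, 284, 64.6 and 190 in MABsallo. Saline had 72.3, 141, 57.2 and 338 in replicates 6, 8, 9 and 10. Replicates 1 to 3 of MABsallo-VEGF were thus below every MABsallo sample, and replicate 4 was above them all. The log2 fold change of MABsallo-VEGF against MABsallo was -0.94 (standard error, SE, 0.84, limma adjusted p = 0.907). In the 22 samples it was -1.93 (SE 0.75, unadjusted p = 0.0184 and limma adjusted p = 0.946), and so the value depended on that library but passed the test in neither set. At 7d Mx2 had 58.0, 228, 124 and 410 after MABsallo-VEGF in replicates 6, 7, 11 and 12, and 149, 199, 48.4 and 187 after MABsallo. Saline had 64.3, 62.2, 181 and 31.4 at 7d, and all 3 groups overlapped.

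At 7d limma called no gene of those tested between treatments. The share was 0% of all genes for MABsallo against saline, 0% for MABsallo-VEGF against saline and 0% for MABsallo-VEGF against MABsallo, and 0 of the 9 members passed in each. In the same order 1014, 1033 and 452 genes had an unadjusted p below 0.05, DESeq2 called 0, 29 and 4 genes, and edgeR called 0 in each, with 0 members among them. In limma the members nearest to the threshold were Oasl and Cxcl10. Oasl was higher in mean after MABsallo than after saline, with a log2 fold change of 1.57 (SE 0.72, 95% interval 0.08 to 3.07), an unadjusted p of 0.0403 and an adjusted p of 0.787 from limma. Cxcl10 had a log2 fold change of -2.25 (SE 1.02) between MABsallo-VEGF and MABsallo, with an unadjusted p of 0.0368 and an adjusted p of 1 from limma. Neither passed, and each was the only member with an unadjusted p below 0.05 in its comparison in limma. Between MABsallo-VEGF and saline, Cxcl10 had -2.65 in DESeq2 (unadjusted p = 0.0147, adjusted p = 0.431). In edgeR it had -2.66 there (unadjusted p = 0.0223, adjusted p = 0.616). Between MABsallo-VEGF and MABsallo the unadjusted p of DESeq2 was 0.0497 for Oasl and 0.0912 for Cxcl10. The shares of genes without overlap were 4.87% for MABsallo and saline, 6.04% for MABsallo-VEGF and saline and 1.84% for MABsallo-VEGF and MABsallo, with 0 of the 9 members in each.

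The second question was how the genes changed from 3d to 7d. Oasl rose in the MABsallo group, the only call of limma and of edgeR among the 9 genes in the 12 comparisons of all 24 samples, while DESeq2 called Rsad2 and Cxcl10 there as well. Oasl had 178, 60.2, 73.9 and 65.1 normalized counts at 3d in replicates 1 to 4, and 235, 1536, 110 and 593 at 7d in replicates 7.2, 9, 11 and 13. The ranges overlapped, since replicate 1 at 3d lay above replicate 11 at 7d. The log2 fold change was 2.20 (SE 0.72, 95% interval 0.70 to 3.70, limma adjusted p = 0.024). With DESeq2 it was 2.72 (adjusted p = 0.00139) and with edgeR 2.87 (adjusted p = 0.00749). Over 14 alternatives other than leaving out single samples the adjusted p lay between 0.00139 and 0.0337.

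The call of Oasl rested on few samples. It was lost without MABsallo 7d replicate 9, with a log2 fold change of 1.54 (limma adjusted p = 0.111), and without replicate 13, with 2.0 (limma adjusted p = 0.0682). It was also lost without MABsallo 3d replicate 2 (2.04, limma adjusted p = 0.0586), replicate 3 (2.13, adjusted p = 0.0534) or replicate 4 (2.07, adjusted p = 0.0519). Leaving out each of the 24 samples in turn gave adjusted p-values from 0.00709 to 0.111. The called member stood among many called genes, since 23% of all genes passed in limma between 7d and 3d after MABsallo. Of all genes 6.05% were called as rises, like Oasl, and 17% as falls. In DESeq2 18.7% of all genes passed and 4.77% as rises, and in edgeR 24% and 8.05%. With the 22 samples 23.7% passed in limma and 6.22% as rises, and Oasl was again the 1 member called.

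Oasl was not called in the other groups. In saline it had 148, 86.2, 57.2 and 187 at 3d and 71.0, 112, 536 and 69.2 at 7d in replicates 1, 2, 3 and 5, with a log2 fold change of 0.28 (SE 0.72, limma adjusted p = 0.884). In MABsallo-VEGF it had 64.9, 158, 121 and 289 at 3d and 123, 399, 93.1 and 315 at 7d, with a log2 fold change of 0.50 (SE 0.72, limma adjusted p = 0.669). At 7d saline replicate 3 was far above the other saline samples, and in all these groups 3d and 7d overlapped. The difference between the rise after MABsallo and that after saline was tested as an interaction and did not pass, at 1.92 (SE 1.02, 95% interval -0.20 to 4.04, limma adjusted p = 0.403). Over all genes tested 0% passed for this interaction, and 0% for that of MABsallo-VEGF, with 0 members called in both. In the 22 samples the shares were 3.56% and 3.59%, again with 0 members. Oasl has a relative, Oasl2, and reads that fit both would have been discarded. Oasl2, named after its values were seen, fell by 2.19 on the log2 scale from 3d to 7d after MABsallo (limma adjusted p = 0.00172).

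Cxcl10 had a log2 fold change of similar size to that of Oasl in the same comparison, without passing in limma or edgeR. It had 149, 186, 175 and 54.3 normalized counts in MABsallo at 3d and 725, 2228, 260 and 353 at 7d, and so every sample of 7d lay above every sample of 3d. A separation in either direction was seen in 1 of the 9 members and in 27.0% of all genes in this comparison. The log2 fold change was 2.27 (SE 1.02, 95% interval 0.17 to 4.37, unadjusted p = 0.0351, limma adjusted p = 0.0938). Over the 14 alternatives the adjusted p lay between 0.0164 and 0.111, and it passed with DESeq2 (2.66, adjusted p = 0.0449), after quantile normalization (2.67, limma adjusted p = 0.0471) and in a fit of only the 2 groups (limma adjusted p = 0.0164). When single samples were left out it lay between 0.0441 and 0.259.

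In the other groups single urethras were far above the rest in Cxcl10. Saline had 75.8, 733, 64.3 and 162 at 3d and 196, 184, 5657 and 233 at 7d. MABsallo-VEGF had 54.1, 142, 75.7 and 347 at 3d and 36.3, 131, 77.6 and 753 at 7d. These were saline replicate 8 at 3d, saline replicate 3 at 7d and MABsallo-VEGF replicates 4 at 3d and 12 at 7d. The log2 fold change from 3d to 7d was 1.58 (SE 1.02, limma adjusted p = 0.426) in saline and 0.12 (SE 1.02, limma adjusted p = 0.95) in MABsallo-VEGF. Without saline 7d replicate 3 the log2 fold change in saline fell from 1.58 to 0.39, the lowest value when single samples were left out. With DESeq2 on all 24 samples Cxcl10 had 2.60 in saline (adjusted p = 0.0957), near the 2.66 that it called after MABsallo. The DESeq2 interaction between these rises did not pass, at 0.06 (adjusted p = 0.989).

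Rsad2 had positive log2 fold changes from 3d to 7d in all 3 treatments, none of which passed in limma with all 24 samples. Saline had 89.5, 341, 329 and 327 normalized counts at 3d and 467, 1215, 898 and 641 at 7d. Each saline sample of 7d lay above each of 3d, and saline 3d replicate 6 was the lowest. This was the 1 member without overlap in saline, where 10.6% of all genes had none. The log2 fold change was 1.65 (SE 0.85, 95% interval -0.11 to 3.42, limma adjusted p = 0.302), and 1.18 (SE 0.83, limma adjusted p = 0.578) in the 22 samples. In the saline comparison 0 of the 9 members and 3.19% of all genes passed. In limma 0 members had an unadjusted p below 0.05, against 18.8% of all genes. DESeq2 and edgeR also called 0 members, beside 6.88% and 6.07% of all genes. With DESeq2 Rsad2 had 1.57 in saline (adjusted p = 0.172). The DESeq2 interaction between this rise and that after MABsallo did not pass, at 0.38 (adjusted p = 0.897).

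After MABsallo, Rsad2 had 163, 197, 406 and 146 at 3d and 316, 606, 235 and 2353 at 7d, with a log2 fold change of 1.44 (SE 0.85, limma adjusted p = 0.211). DESeq2 called it, at 1.95 (adjusted p = 0.0366), and edgeR did not, at 2.11 (adjusted p = 0.0527). Over the 14 alternatives the adjusted p lay between 0.0164 and 0.46. After MABsallo-VEGF it had 48.7, 142, 111 and 686 at 3d and 1157, 39.9, 608 and 678 at 7d. Replicate 4 at 3d was above 3 of the 4 samples of 7d, and replicate 7 at 7d, labelled recovered, was the lowest of all 24. The log2 fold change was 1.29 (SE 0.85, limma adjusted p = 0.305). It was 2.01 (SE 0.83, limma adjusted p = 0.0787) in the 22 samples, where DESeq2 gave 2.63 (adjusted p = 0.00304) and edgeR 2.78 (adjusted p = 0.0168). It was 2.36 (limma adjusted p = 0.0325) without replicate 7 of 7d.

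From 3d to 7d after MABsallo-VEGF, 0 of the 9 members passed with limma, DESeq2 or edgeR on all 24 samples. In the same order 15.3%, 14.2% and 16% of all genes passed. In limma 0 members had an unadjusted p below 0.05, against 33.4% of all genes. With the 22 samples 20.3% of all genes passed in limma. In 0 members were the groups free of overlap, against 21.8% of all genes. From 3d to 7d, Isg15, Mx1, Mx2, Ifit2 and Irf7 had log2 fold changes between -0.77 and 0.66 in the 3 treatments with 24 samples. Ifit3 had 0.72 in saline, 0.69 in MABsallo and 0.45 in MABsallo-VEGF. Adjusted p-values from limma for these 6 genes with 24 samples ranged upward from 0.344, the value of Ifit3 in MABsallo. In the 22 samples the range was wider. There, after MABsallo-VEGF, Mx2 had 1.54 (SE 0.75, limma adjusted p = 0.14) and Isg15 had 0.80 (limma adjusted p = 0.519). DESeq2 called Mx2 in those samples, at 1.90 (adjusted p = 0.0428), while limma did not. After MABsallo the 3 members with the largest log2 fold changes from 3d to 7d were Oasl, Rsad2 and Cxcl10. Of these, Rsad2 and Cxcl10 have the ISRE core in the promoters printed above and Oasl has no match in its window. Ifit3 and Irf7 also have the core, with 0.69 and 0.66 in this comparison, and were not called. The core was in 4 of the 6 printed promoters, so no link between it and the changes can be read from these genes.

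**Figure D2:**
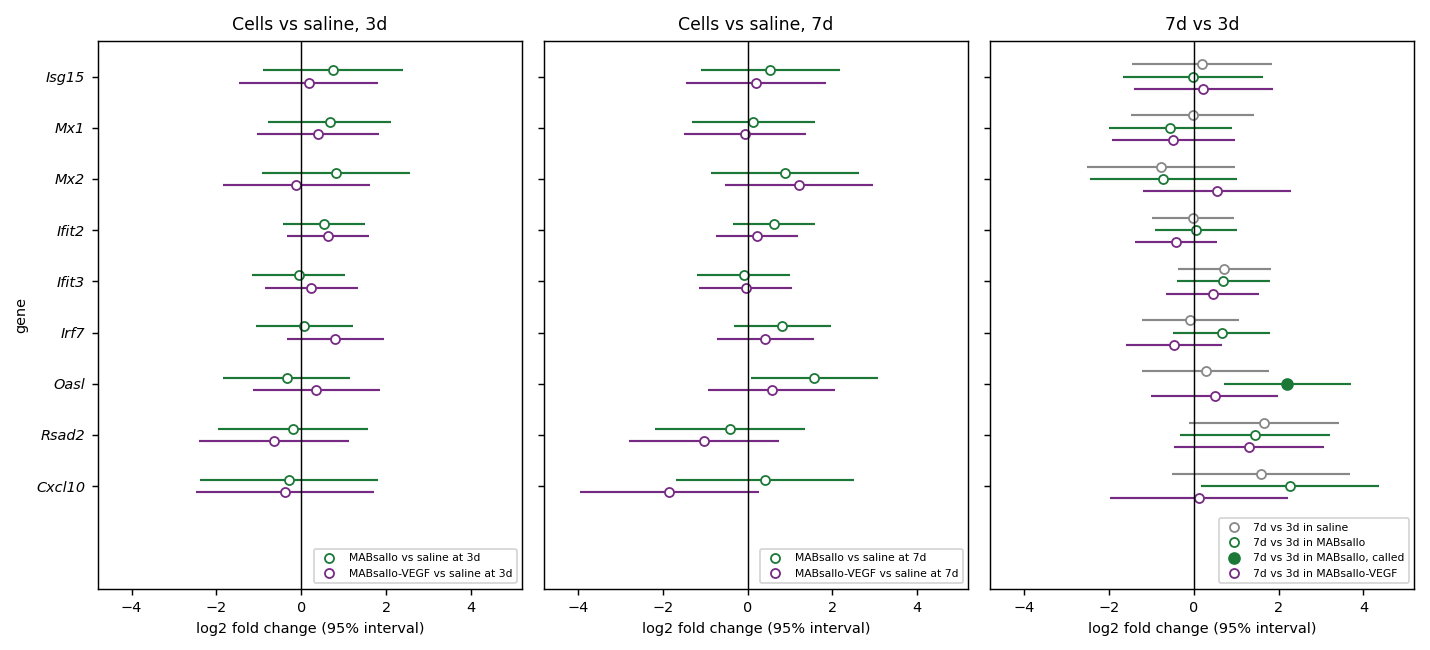
Log2 fold changes of the 9 genes with 95% intervals from limma for both cell treatments against saline at 3d (left) and 7d (middle), and for 7d against 3d in each treatment (right). Green is MABsallo, purple MABsallo-VEGF and grey saline, and the only filled point is Oasl after MABsallo, at 2.20.

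Within MABsallo-VEGF at 7d the recovered samples, replicates 6 and 7, were compared with replicates 11 and 12. The members did not share a direction between the recovered samples. Replicate 6 was the lowest of its group in 4 of the 9 genes and replicate 7 was the highest in 3. The share of all genes that passed was 0%, and 0 members had an unadjusted p below 0.05 in limma, against 2.72% of all genes. Log2 fold changes of the recovered samples lay between -1.79 for Cxcl10 (95% interval -4.74 to 1.15) and 0.37 for Oasl (95% interval -1.79 to 2.54).

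The genes moved together from urethra to urethra. When each value, as log2(normalized count + 1), was taken as its deviation from the mean of its group, 36 of the 36 pairs of members had a correlation above 0 over the 24 samples, with a median of 0.63. In 24 pairs, or 66.7%, it was above 0.5. Among 4790 genes in the same range of mean levels, 5.64% of 11469655 pairs were above 0.5, with a median of -0.0006. In the 22 samples the median of the members was 0.60, and 33 of the 36 pairs were above 0. These are descriptions over samples that share 1 set of libraries and size factors. Mx1 and Mx2 had the highest correlation, 0.88, and Irf7 and Oasl, as well as Ifit3 with Oasl and with Cxcl10, had between 0.76 and 0.77.

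**Figure D3:**
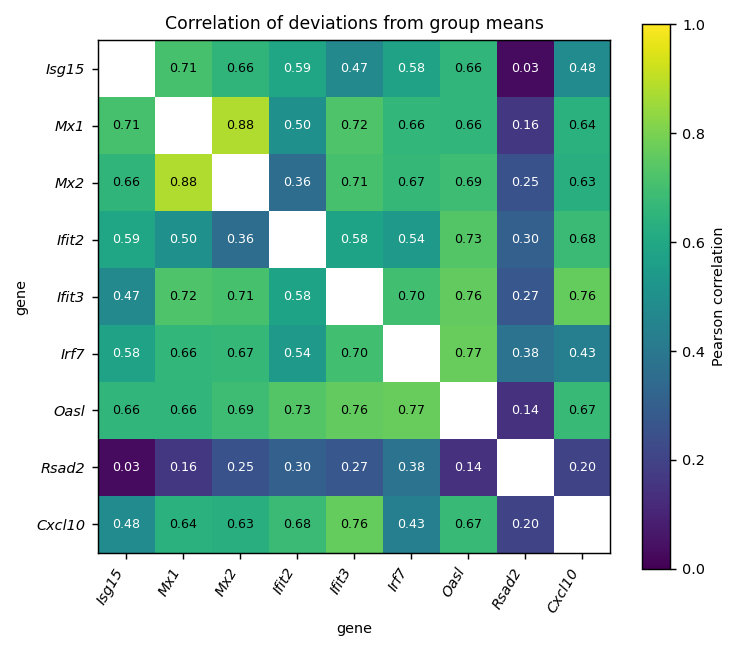
Pearson correlations between the 9 genes over 24 urethras, after the mean of each group was subtracted on the log2 scale. Rsad2 has values of 0.03 to 0.38 with the other genes, and the highest value is 0.88 for Mx1 and Mx2.

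Rsad2 was the exception among the 9. Its correlations with the other members lay between 0.03 (Isg15) and 0.38 (Irf7), with a median of 0.23, whereas the medians of the other members lay between 0.56 (Ifit2) and 0.70 (Ifit3). The promoter printed for Rsad2 has the ISRE core, as have those of Ifit3 and Irf7. MABsallo-VEGF 7d replicates 6 and 7 show how it parted from the rest. Replicate 6 was the highest of its group in Rsad2, 1157, and the lowest in Isg15, Mx1, Mx2 and Cxcl10. Replicate 7 had the lowest Rsad2, 39.9, and the highest Isg15 and Oasl.

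A few urethras were high in most of the 9 genes. MABsallo-VEGF 3d replicate 4 and saline 7d replicate 3 were each the highest of their group in 8 of the 9 genes. Saline 3d replicate 10 and MABsallo 7d replicate 9 were the highest in 6. At the other end, MABsallo 7d replicate 11 was the lowest of its group in 9 of the 9 genes and MABsallo-VEGF 3d replicate 1 in 7. Such samples occurred in saline as well as in cell-treated groups, and at 3d as well as at 7d. MABsallo 7d replicate 11 had the most reads, 10166052.

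**Figure D4:**
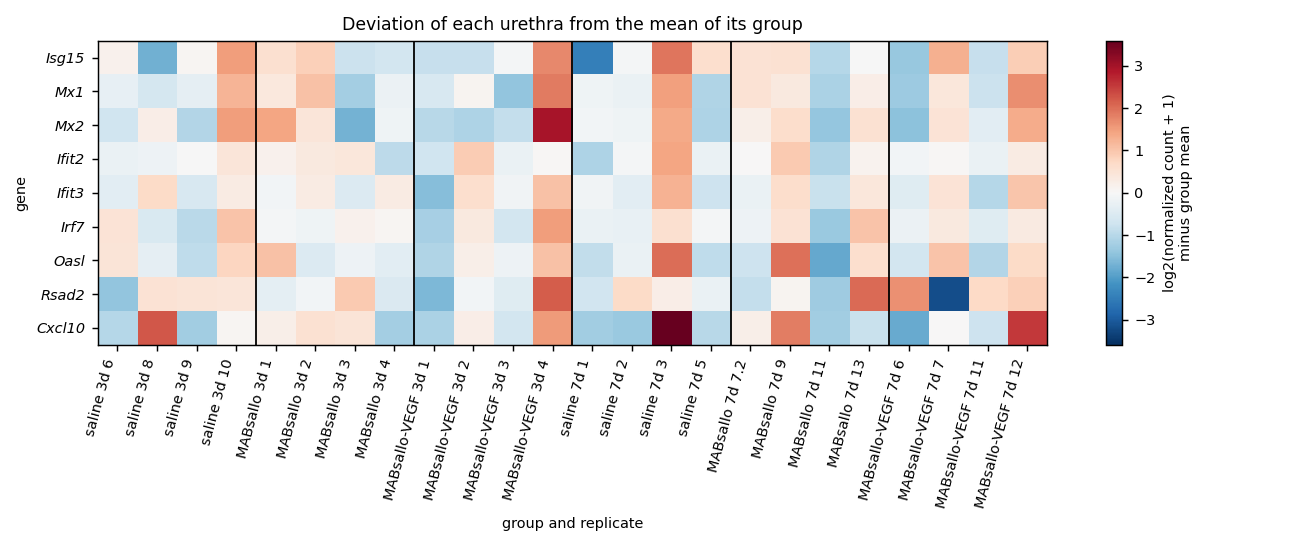
Deviation of each urethra from the mean of its group, in log2(normalized count + 1), for the 9 genes (rows) and 24 samples (columns, separated by group). Red columns such as MABsallo-VEGF 3d replicate 4 and saline 7d replicate 3 were the highest of their group in 8 of the 9 genes, and the blue column MABsallo 7d replicate 11 was the lowest in 9.

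The mean of the 9 standardized levels was set beside the summed markers of 13 cell types over the 24 samples. Correlations lay between -0.03 for plasmacytoid and other dendritic cells and 0.26 for erythroid markers, with 0.06 for macrophages and -0.0003 for T and NK cells. The correlation with reads was -0.02, and -0.29 within groups. Markers of T and NK cells (9 of 10 in the table, with Gzmb at 0 in every sample) summed to 48.5 to 725 normalized counts, and those of macrophages (9 of 9) to 1548 to 29826. Within groups the largest correlation was 0.43, for 5 endothelial markers, which summed to 2548 to 8658. In MABsallo-VEGF 3d replicate 4 the fibroblast sum was 420317 and the erythroid sum 442006, the highest of that group, and their part in the high members was not tested.

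The 10 genes most like the mean of the members over the 24 samples, among 12746 genes compared, included 3 of the listed pathway genes. Oas1a, an oligoadenylate synthetase, had a correlation of 0.71, Usp18, the protease that removes Isg15 from proteins, 0.64, and Dhx58, an RNA sensor of the cytoplasm, 0.64. Those not on the lists were Oas1f (0.70), Hsh2d (0.68), Trib3 (0.65), Abhd11 (0.63), Bcl3 (0.60), Nob1 (0.60) and AABR07039202.2 (0.60). Oas1a and Oas1f belong to a family of near-identical copies, between which reads may be lost or divided. Of the 12746 genes 52 were above 0.5, and 7 of 87 pathway genes were.

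Interferons themselves were hardly measured. The genes Ifnb1, Ifng, Ifna1, Ifna2, Ifna4, Ifna5, Ifna11, Ifna16l1, Ifnl1 and Ifnl3 had 0 reads in all 24 samples. At 3 reads, the limit that a count of 0 allows, this leaves room for up to 5.004 to 27.7 normalized counts depending on the sample, and the limit covers counting error only. Ifne had 1 read in 1 sample and Ifnk 6 reads in 2 samples.

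The receptor and signal genes were measured in every sample. Ifnar1 had group medians of 446 to 864 normalized counts and Ifnar2 of 62.8 to 247. Both fell from 3d to 7d after MABsallo-VEGF, by 1.14 (SE 0.26, limma adjusted p = 0.00314) and 1.66 (SE 0.47, limma adjusted p = 0.0149) on the log2 scale. Stat2, which carries the signal to the nucleus, had log2 fold changes between -0.30 and 0.27 in the cell treatments against saline at 3d and from 3d to 7d, and passed in none of these. Irf9 fell from 3d to 7d after MABsallo by 1.73 (SE 0.51, limma adjusted p = 0.012), in the group where Oasl rose. Ifit1, a relative of Ifit2 and Ifit3, had 0 reads in 14 of the 24 samples, and Usp18 and Oas1a passed in no comparison of cells with saline at 3d or of 7d with 3d.

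Jak1, the kinase bound to Ifnar2, was called higher after MABsallo than after saline at 3d. Its level was 1096 to 2317 normalized counts in MABsallo and 200 to 1160 in saline, a log2 fold change of 2.14 (SE 0.45, limma adjusted p = 0.00717). From 3d to 7d it fell by 3.00 in MABsallo (limma adjusted p = 9.81e-05) and by 3.00 in MABsallo-VEGF (limma adjusted p = 0.000188). Jak1 passed in both cell treatments between the days, and of the 9 members Oasl passed, after MABsallo.

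Among 93 tested genes of the pathway that are not members, 5 were higher and 3 lower after MABsallo at 3d. With Jak1 the higher genes were Irf2, a repressor of the ISRE (1.23), and Parp14 (3.12), Xaf1 (3.70) and Igtp (1.96), 3 other interferon-stimulated genes. The lower genes were Sting1 (-1.62), the adaptor of cytoplasmic DNA sensing, and the antiviral membrane proteins Ifitm1 (-1.16) and Ifitm3 (-1.50). These shares, 5.38% higher and 3.23% lower, stood beside 9.4% and 2.86% of all genes. With the 22 samples 13 were higher and 3 lower, and 10 were higher and 3 lower after MABsallo-VEGF, where all 24 samples gave 0 of 93. These shares were 14.0% and 3.23% for MABsallo, beside 13.8% and 4.36% of all genes, and 10.8% and 3.23% for MABsallo-VEGF, beside 11.4% and 2.19%.

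From 3d to 7d more of these 93 genes fell than rose in the cell-treated groups, and the same held for all genes. After MABsallo, 19 of the 93 genes fell and 5 rose, 20.4% and 5.38%, beside 17% and 6.05% of all genes. After MABsallo-VEGF 17 fell and 2 rose, 18.3% and 2.15%, beside 13.1% and 2.24%. The median log2 fold change of the 93 was -0.43 after MABsallo and -0.52 after MABsallo-VEGF. It was 0.66 and 0.23 for the 9 members and -0.06 and -0.05 for all genes. In the 22 samples the medians after MABsallo-VEGF were -0.37 for the 93, 0.80 for the 9 members and -0.04 for all genes. Xaf1 had the largest fitted log2 fold change in both, -7.27 and -5.92. In MABsallo it had 81.4 to 305 normalized counts at 3d and 0 in all 4 samples at 7d, and with 3 reads per library as the floor it was at least 19.0-fold lower at 7d. Next after MABsallo were Parp14 (-5.31), Gbp1 (-4.50), the RNA sensor Ddx58 (-4.02) and Socs3 (-3.99), an inhibitor of cytokine signalling. After MABsallo-VEGF they were Parp14 (-4.70), Herc6 (-3.95), Ddx58 (-3.64) and Igtp (-3.53). Ddx58 was at 0 in all 7d samples of both treatments, and so it was at least 3.87-fold lower at 7d after MABsallo and at least 1.36-fold lower after MABsallo-VEGF. With genes at 0 in a whole group set to such bounds the medians of the 93 in all 24 samples were -0.38 and -0.45. The rises after MABsallo were Ifitm3 (1.92), Sting1 (1.45), Ifitm1 (1.36), Trex1 (1.24) and Irf8 (1.06), and after MABsallo-VEGF Ifitm3 (1.59) and Ifnlr1 (1.13). In saline 0 rose and 2 fell, Parp14 (-3.90) and Parp9 (-1.01), which is 2.15% beside 2.59% of all genes, and in the 22 samples 0 of the 93 fell, beside 0.129%.

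**Figure D5:**
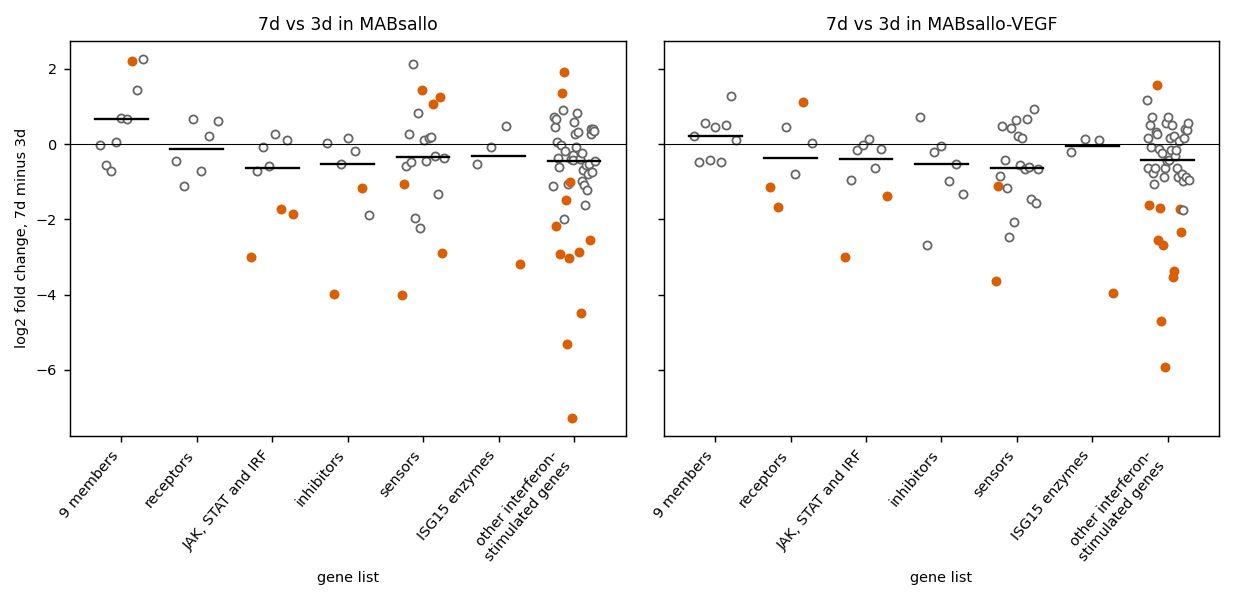
Log2 fold change from 3d to 7d in limma, after MABsallo (left) and MABsallo-VEGF (right), for the 9 members and for 6 lists of other genes of the interferon pathway. Points are genes, filled where called, and bars are medians. Most filled points lie below 0, and among the members the only one is Oasl after MABsallo.

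RNA of small structured and nuclear transcripts moved with day and treatment. Its sum was 4714 to 26384 normalized counts in MABsallo 3d and 1950 to 12227 in MABsallo-VEGF 3d, against 1348 to 2865 in saline 3d and 752 to 2116 over all samples of 7d. Its part in the falls of the pathway genes was not tested. With the mean of the 9 members it had a correlation of -0.06 over the 24 samples.

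Cxcr3, the receptor of Cxcl10, was close to the limit of detection. Its highest values were 43.1 normalized counts in saline 3d, 9.23 in MABsallo 3d and 22.3 in MABsallo-VEGF 3d, and 24.9, 99.1 and 41.0 in the same order at 7d. In all 24 samples it passed in no comparison. In the 22 samples it passed as higher at 7d than at 3d after MABsallo (2.99, limma adjusted p = 0.0158) and after MABsallo-VEGF (3.82, limma adjusted p = 0.00651), and as lower after MABsallo-VEGF than after saline at 3d (-4.01, limma adjusted p = 0.0123). These fold changes against groups at or near 0 depend on the pseudocount of 1.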

How the data were processed

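Urethral RNA was made into 3′ mRNA libraries (QuantSeq). The authors trimmed reads and used HISAT2 for alignment to Rnor6.0. Reads mapping to several places were dropped, the rest were assigned to genes by HT-seq Count, and each sample was scaled by a DESeq2 size factor. The deposited values, a signal, are thus normalized gene counts. All values were whole multiples of 1 read per sample (tolerance 0.01 read), and reads were recovered. Groups came from the treatment labels of the samples. Nothing but the titles and the design says that samples are separate animals, so p-values measure the spread between these samples.

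Values were tested as log2(normalized count + 1) in 1 fit of all 24 samples with limma 3.58.1 (trend, R 4.3.3), on 16287 genes with a mean of at least 2. Two-sided p-values were adjusted by Benjamini-Hochberg over all genes tested, and calls needed adjusted p below 0.05 with log2 fold change past 1 in size. Fold changes on this scale understate low genes. Recovered reads were tested with DESeq2 1.42.0 and edgeR 4.0.16 (quasi-likelihood). Alternatives also varied the pseudocount, filter, scaling, weights and samples. The tests were checked on simulated data with 200 genes changed by 2 on the log2 scale. Of these limma called 132, edgeR 127 and DESeq2 153, with 12, 2 and 21 false calls. Changes of that size can thus be missed. In a comparison without changed genes the false calls were 0, 0 and 5.

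Named pathway genes are a fixed set of 11 signal and target genes and, per comparison, at most 5 called rises and 5 called falls of the lists. The result of 1 of the 11 is not reported here. Members and lists were chosen with earlier results of these data known. DESeq2 and edgeR on the 22 samples were added after seeing the data. Promoters are RefSeq sequences of GRCr8. No coordinates are given for Rnor6.0.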

Additional observations from a re-analysis of the deposited data

Results flagged for a closer look

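In 11 of the 54 sets of 1 gene in 1 group, 1 sample lay far from the other 3, with a gap to its neighbour, relative to the range, above Dixon's 95% limit. The gap was taken on normalized counts, not on the log2 scale of the tests. Dixon's limit flags about 1 in 20 groups by chance only where values are normally spread, which was not checked. The sets are also not independent, since the genes move together, so the count of 11 is a description. MABsallo-VEGF 3d replicate 4 was high in Isg15 (739 normalized counts), Mx2 (864) and Rsad2 (686). Saline 7d replicate 3 was high in Irf7 (90.4), Oasl (536) and Cxcl10 (5657). At 3d, saline replicate 10 was high in Mx1 (387), saline replicate 8 in Cxcl10 (733) and MABsallo replicate 1 in Oasl (178). MABsallo-VEGF 7d replicate 12 was high in Cxcl10 (753). The only low sample among the 11 was saline 3d replicate 6, in Rsad2 (89.5).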

How the results depend on the processing

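Of 457 alternative counts of called members over the 12 comparisons, 443 equalled the reported count or stayed within 1.5 times of it, and no called value changed sign. The exceptions were from 3d to 7d. After MABsallo the count of 1 became 3 with DESeq2, 2 with quantile normalization and 2 in a fit of only the groups compared. It ranged from 0 to 2 when single samples were left out, being 2 (with Cxcl10) without saline 7d replicate 3. Without both 3d libraries that stand apart, edgeR called 2 and DESeq2 3. After MABsallo-VEGF the count of 0 ranged from 0 to 1 when single samples were left out, and without both libraries it was 1 with edgeR (Rsad2) and 2 with DESeq2 (Rsad2 and Mx2). These changes come with other tests or fewer samples, and their cause was not tested. Scaling to the same total moved the median of all genes by 0.21 (log2) from 3d to 7d after MABsallo and by -0.27 between MABsallo and saline at 3d, and quantile normalization by 0.31 and -0.19.

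A replicate block could be fitted only for MABsallo-VEGF against MABsallo at 3d, where the numbers are shared. It called 0 of the 9 members and 0 genes in all. The block thus changed no call of a member, while the fit without it called 1 gene in all. Deviations of same-numbered samples correlated at 0.21, 0.14, 0.07 and 0.25. Nothing says that a number marks a shared animal or day, so the block is not used. Low values rested on as few as 6 reads, which limits all comparisons of these genes.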
